A study of Mus musculus with 12 samples.

Results

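Polycomb genes were examined as a set of 40 genes that encode the subunits of Polycomb repressive complexes 1 and 2 (PRC1 and PRC2) and of the opposing BAP1 complex. They were picked by symbol from the 57180 genes of the deposited tables, by a rule that reads symbols and no measured value. The list of symbols itself was chosen with earlier results of these data known. The set held 6 PRC2 core genes, 6 PRC2 accessory genes, the 2 catalytic genes of PRC1, 11 genes of canonical PRC1, 12 of variant PRC1 and 3 of the BAP1 complex. Each symbol matched 1 gene, and all 40 were among the 25446 genes tested and the 15032 with a mean of 1 or more counts per 1000000 (CPM).

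The 12 RNA sequencing libraries came from the E14-dox-CRISPRi mouse embryonic stem cell (ESC) line, in 4 groups of 3. In this male 129/Ola line doxycycline (DOX) switches on dCas9 fused to transcriptional repressors from a TetO promoter, under a TetOn3G activator driven by CAG, with both transgenes in the Tigre alleles. Neg cells carried 4 scramble guide RNAs, and 3xKD cells carried guides against *Pcx* (pyruvate carboxylase), *Me1* and *Me2* (malic enzymes). All 4 groups carried the repressor and received DOX, first in N2B27 medium with 2iLIF. Neg ESCs and 3xKD ESCs then stayed in that medium, while Neg EpiLCs and 3xKD EpiLCs were moved to Activin A, Fgf2 and XAV939 and collected as epiblast-like cells on day 2. The parent line was grown from a picked colony and each guide set was then inserted separately by piggyBac, so a difference between 3xKD and Neg cannot be told apart from other differences between these lines. The paper's methods describe replicates as biological unless a legend says otherwise. Since all libraries of a group came from 1 line, the p-values measure only the spread between these libraries.

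Polycomb complexes keep developmental genes silent. PRC2 holds the methyltransferase EZH2 or EZH1 with EED, SUZ12 and RBBP4 or RBBP7, and methylates lysine 27 of histone H3. A PCL protein (MTF2, PHF1 or PHF19), often with EPOP, defines one PRC2 form, and JARID2 with AEBP2 defines the other. PRC1 ubiquitinates histone H2A through RING1 or RNF2 (RING1B). Canonical PRC1 pairs PCGF2 or BMI1 with a CBX reader of the PRC2 mark and a PHC protein, whereas variant PRC1 forms pair other PCGF proteins with RYBP or YAF2. BAP1, with an ASXL protein, removes the H2A ubiquitin. In ESCs these complexes hold lineage genes in check until differentiation begins.

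Promoter sequences are shown for 3 members that the results turn on, chosen after their values were seen, where the window before the start site held no annotated exon over 244 bases or more. *Suz12* and *Rybp* are given before the start of their most abundant transcript, and *Kdm2b* before its internal start, which comes up again with its transcripts. The windows are chr11:79883646-79883890 on the plus strand for *Suz12*, and on the minus strand chr6:100264453-100264696 for *Rybp* and chr5:123038419-123038668 for *Kdm2b*, all in GRCm39. Capitals mark an E-box (CACGTG, its own reverse complement) or an E2F motif (TTTCCCGC on either strand).
Suz12: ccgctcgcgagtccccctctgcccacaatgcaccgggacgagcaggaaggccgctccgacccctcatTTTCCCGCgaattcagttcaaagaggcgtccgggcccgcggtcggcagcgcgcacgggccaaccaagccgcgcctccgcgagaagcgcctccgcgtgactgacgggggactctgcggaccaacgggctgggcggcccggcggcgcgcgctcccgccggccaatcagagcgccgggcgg
Rybp: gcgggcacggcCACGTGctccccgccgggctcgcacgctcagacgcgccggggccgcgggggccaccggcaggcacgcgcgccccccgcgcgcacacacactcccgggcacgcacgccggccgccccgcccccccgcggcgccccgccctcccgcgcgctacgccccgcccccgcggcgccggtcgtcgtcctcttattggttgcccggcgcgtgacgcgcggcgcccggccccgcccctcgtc
Kdm2b: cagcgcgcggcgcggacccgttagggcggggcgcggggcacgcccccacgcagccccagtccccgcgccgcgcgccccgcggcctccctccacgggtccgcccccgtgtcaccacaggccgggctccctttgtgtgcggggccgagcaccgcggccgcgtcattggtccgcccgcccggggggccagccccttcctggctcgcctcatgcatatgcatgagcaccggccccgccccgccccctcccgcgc

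In the 250 bases before the start of each gene's most abundant transcript, the E2F letters were found in 4 of the 40 members, or 10%, against 1.06% of 25400 promoters of tested genes. All 4 were PRC2 genes: *Eed*, *Suz12*, *Mtf2* and *Phf19*. The members' windows were rich in CpG, with a median of 19 CpG against 8 over all promoters. Among windows with at least 19 CpG the shares were 17.4% (4 of 23 members) and 2.12% of 5101 promoters. The E-box stood before 5 members (*Epop*, *Pcgf2*, *Cbx8*, *Phc3* and *Rybp*), or 12.5%, against 6.13% of all promoters. No printed window held both motifs, and a match is a description of the window and not a binding site.

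Total counts lay between 11221023 and 19652197 per library. The targeted genes fell in both states. *Pcx* read 36.2, 36.7 and 35.7 CPM in Neg ESCs, 16.2, 16.3 and 16.8 in 3xKD ESCs, 46.7, 49.4 and 56.9 in Neg EpiLCs and 24.5, 23.6 and 25.6 in 3xKD EpiLCs, with −1.14 in 3xKD against Neg ESCs and −1.05 in EpiLCs on the log2 scale, and *Me1* and *Me2* had log2 fold changes of −0.89 and −0.95 in 3xKD ESCs and of −1.05 and −0.98 in 3xKD EpiLCs. Within 1000 bases of the members' start sites, no 19-base stretch beside an NGG motif came closer than 5 mismatches to a targeting guide or 4 to a scramble guide, whereas each targeting guide matched its own gene without a mismatch. Of the cell type markers, 10 naive genes summed to between 4721 and 4856 CPM in Neg ESCs, 3206 and 3262 in 3xKD ESCs, 469.7 and 486 in Neg EpiLCs and 519.9 and 544 in 3xKD EpiLCs. The 10 formative genes summed to between 449 and 463, 435 and 451, 3916 and 4329, and 2280.4 and 2334 in the same order. The 6 trophoblast genes summed to between 25.6 and 26.8 CPM in Neg ESCs, 11.7 and 12.5 in 3xKD ESCs, 5.30 and 6.38 in Neg EpiLCs and 7.16 and 8.81 in 3xKD EpiLCs. Of the 6 genes for 2-cell-like cells, 4 were detected and summed to between 330.0 and 365 CPM in 3xKD EpiLCs and to between 165 and 214 in the other groups. The 7 primitive endoderm genes summed to between 22.4 and 25.1 CPM in Neg ESCs and 30.6 and 33.1 in 3xKD ESCs. In EpiLCs they summed to between 28.3 and 33.1 in Neg and 24.1 and 25.7 in 3xKD cells. The 5 tested of 6 fibroblast genes summed to between 1.07 and 3.54 CPM. The part that these marker differences have in the results below was not tested.

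Levels of different subunits were set side by side in transcripts per 1000000 (TPM), which are per transcript length, as mean ± SD of 3 libraries. In Neg ESCs the most abundant member was *Rbbp4* at 216 ± 22.6 TPM, followed by *Phc1* at 144 ± 23.7 and *Mtf2* at 125 ± 22.4. *Phf1* (1.45 ± 0.211), *Phf19* (1.59 ± 1.02) and *Ring1* (2.32 ± 0.508) were the 3 least abundant. *Phf1* and *Phf19* did not differ beyond their spread. In Neg EpiLCs *Phc1* led at 576 ± 30.3 TPM, with *Rbbp4* at 270.0 ± 1.96 and *Jarid2* at 256 ± 16.9, the latter pair not differing beyond the spread of *Jarid2*.

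The choice of paralogue was strongly one-sided in all 4 groups. *Ezh2* held 89.6% ± 1.06 of the summed TPM of *Ezh1* and *Ezh2* in Neg ESCs and 86.4% ± 1.70 in 3xKD ESCs, with 89.7% ± 0.268 and 86.7% ± 1.45 in the EpiLC groups. *Rnf2* held 96.1% ± 0.183 of the *Ring1* and *Rnf2* sum in Neg ESCs and 94.4% ± 0.232 in Neg EpiLCs. *Mtf2* was 97.6% ± 0.771 of the PCL sum and *Rybp* 91.6% ± 0.180 of the *Rybp* and *Yaf2* sum in Neg ESCs. *Cbx7* made up between 68.1% and 73.4% of the CBX readers across the 4 groups. In the BAP1 complex *Asxl1* exceeded *Asxl2*, with 69.5% ± 2.93 of their sum in Neg ESCs and 75.4% ± 1.36 in Neg EpiLCs.

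The PRC2 accessory subunits and the PCGF subunits were more evenly mixed, with shares that differed by state and line. Of the summed TPM of the 6 accessory genes, *Jarid2* and *Aebp2* together held 35.5% ± 0.947 in Neg ESCs and 68.9% ± 1.33 in Neg EpiLCs, and 37.1% ± 0.813 and 65.7% ± 0.571 in the 3xKD groups. *Epop* went the other way, from 26.1% ± 0.808 in Neg ESCs to 14.9% ± 0.952 in 3xKD ESCs and 8.98% ± 0.477 in Neg EpiLCs. Among the 6 PCGF genes, *Pcgf6*, of the variant complex that holds MGA, E2F6 and L3MBTL2, took 16.03% ± 1.73 in Neg ESCs and 26.4% ± 1.71 in Neg EpiLCs. *Pcgf5* took 5.99% ± 0.471 in Neg ESCs and 12.4% ± 0.972 in 3xKD ESCs, while *Bmi1* took 17.5% ± 0.434 and 11.9% ± 1.34. These shares are of RNA estimates and were not tested.

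**Figure D1:**
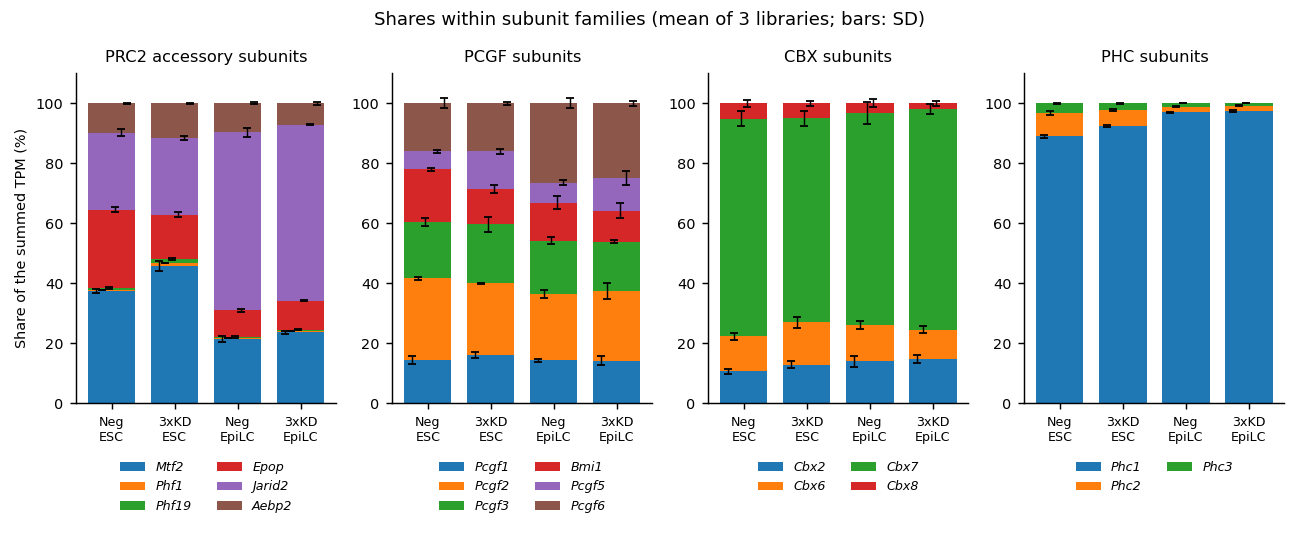
Share of the summed TPM (%) held by each gene within the PRC2 accessory, PCGF, CBX and PHC subunits, as stacked bars of the mean of 3 libraries in each of the 4 groups, with SD. *Jarid2* and *Aebp2* fill 35.5% of the accessory bar in Neg ESCs and 68.9% in Neg EpiLCs, of which *Aebp2* holds 9.81% and 9.62%. *Cbx7* and *Phc1* fill most of their bars in every group.

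To see how Polycomb subunits changed on the exit from the naive state, EpiLCs were compared with ESCs within each line. A gene is called higher or lower where its adjusted p is below 0.01 and its log2 fold change lies beyond 0.58 in either direction. In Neg cells 6 members were called higher, against 9.78% of all genes tested, and 5 were called lower, against 11.0%. Among genes with a mean of 1 CPM or more, as all members have, the shares were larger, at 13.9% and 16.7%. On the adjusted p alone 12 members were higher and 12 lower, where 17.5% and 18.2% of all genes were. Here and below, shares on the adjusted p alone are of all genes tested, those under 1 CPM included. They were not taken among genes at 1 CPM or more, so the members lack a like background there. In 3xKD cells 4 members were called higher (background 9.42%) and 6 lower (9.32%), and on the adjusted p alone 9 were higher (15.9%) and 14 lower (17.9%). Among genes at 1 CPM or more, 13.6% were called higher and 14.3% lower in 3xKD cells. The median log2 fold change of the 40 members was 0.026 in Neg cells and −0.091 in 3xKD cells, and that of all genes tested was 0.011 in both. In bulk libraries, fewer cells of one kind and less RNA per cell cannot be told apart.

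Of the PRC2 core, *Eed* and *Suz12*, the partners without which EZH2 is inactive, fell in Neg EpiLCs. *Suz12*, whose printed promoter holds the E2F letters, read 433, 424 and 427 CPM in Neg ESCs, 311, 296 and 315 in 3xKD ESCs, 239, 235 and 245 in Neg EpiLCs and 237, 230.1 and 225 in 3xKD EpiLCs. The Neg ESC libraries stood above all others, the 3xKD ESC libraries came next, and both EpiLC groups overlapped. Its log2 fold change between states was −0.84 (SE 0.033, edgeR adjusted p = 1.96e-12) in Neg cells and −0.41 (SE 0.033, edgeR adjusted p = 2.49e-08) in 3xKD cells, the latter inside the fold limit. *Eed* read 128, 121 and 123 CPM in Neg ESCs, 105, 101 and 104 in 3xKD ESCs, 75.002, 66.2 and 71.1 in Neg EpiLCs and 57.9, 60.2 and 60.6 in 3xKD EpiLCs, every EpiLC library lying below every ESC library. It fell in both lines, with log2 fold changes of −0.80 (SE 0.044, edgeR adjusted p = 1.41e-10) in Neg cells and −0.79 (SE 0.045, edgeR adjusted p = 2.59e-10) in 3xKD cells. *Ezh2*, the main methyltransferase, was higher in Neg EpiLCs on the adjusted p alone, with 0.17 (SE 0.036) in Neg cells (edgeR adjusted p = 0.00097) and 0.11 (SE 0.036) in 3xKD cells (edgeR adjusted p = 0.0227). *Ezh1*, *Rbbp4* and *Rbbp7* had values between −0.063 and 0.12 in Neg cells and between −0.092 and 0.15 in 3xKD cells, none with an adjusted p under 0.01.

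The PRC2 accessory genes went in opposite directions. *Jarid2*, which helps to bring PRC2 to its targets, rose from 460.4, 465 and 449.6 CPM in Neg ESCs to 1008, 998 and 1048 in Neg EpiLCs, and from 328, 325 and 318 in 3xKD ESCs to 889, 876 and 899 in 3xKD EpiLCs. The log2 fold changes were 1.15 (SE 0.031, edgeR adjusted p = 1.52e-14) and 1.46 (SE 0.032, edgeR adjusted p = 1.73e-15). *Mtf2*, the PCL protein that targets PRC2 to CpG-rich DNA, read 517, 523 and 513 CPM in Neg ESCs, 514, 479.8 and 501 in 3xKD ESCs, 317, 314 and 330.4 in Neg EpiLCs and 313, 305 and 301 in 3xKD EpiLCs. It fell in both lines, with log2 fold changes of −0.69 (SE 0.034, edgeR adjusted p = 2.94e-11) in Neg and −0.70 (SE 0.034, edgeR adjusted p = 3.62e-11) in 3xKD cells, and the lines overlapped as ESCs, while as EpiLCs every 3xKD library lay just below every Neg library. *Epop*, a PRC2 partner abundant in ESCs, read 281, 288 and 288 CPM in Neg ESCs, 129, 137 and 121 in 3xKD ESCs, 112, 106 and 102 in Neg EpiLCs and 101, 98.7 and 103 in 3xKD EpiLCs. In Neg cells it fell with a log2 fold change of −1.42 (SE 0.044, edgeR adjusted p = 7.03e-14), the largest fall of any member, whereas in 3xKD cells, already low as ESCs, the change was −0.35 (SE 0.044), inside the fold limit. *Phf1* and *Phf19*, the scarce PCL genes, were called lower in 3xKD cells alone, with −0.68 (SE 0.12, edgeR adjusted p = 0.000151) and −1.03 (SE 0.14, edgeR adjusted p = 9.2e-06) against −0.39 (SE 0.13) and 0.24 (SE 0.16) in Neg cells. For *Phf19* the difference between lines was tested and is given below. *Aebp2* (−0.39) was lower in 3xKD cells on the adjusted p alone and had 0.020 in Neg cells. For *Phf1* the difference between lines did not pass (edgeR adjusted p = 0.312).

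Of the PRC1 catalytic genes neither was called between states. *Rnf2* had log2 fold changes of −0.17 (SE 0.042) and −0.37 (SE 0.042) in Neg and 3xKD cells, with adjusted p of 0.00317 and 1.77e-06 from edgeR, and *Ring1* of 0.14 (SE 0.12) and 0.13 (SE 0.12), with adjusted p of 0.375 and 0.421. *Rnf2* was thus lower in both lines on the adjusted p alone, and DESeq2 called neither gene.

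In canonical PRC1, *Phc1* showed the largest rise of the set. This polyhomeotic protein, whose SAM domain links PRC1 complexes into polymers, read 351, 349 and 335 CPM in Neg ESCs, 437, 453 and 458 in 3xKD ESCs, 1285, 1292 and 1308 in Neg EpiLCs and 1487, 1469 and 1504 in 3xKD EpiLCs. Its log2 fold change was 1.91 (SE 0.033, edgeR adjusted p = 4.11e-17) in Neg cells and 1.73 (SE 0.032, edgeR adjusted p = 2.04e-16) in 3xKD cells, and every EpiLC library stood far above every ESC library. *Cbx8*, one of the CBX readers, fell in both lines, with log2 fold changes of −0.92 (SE 0.13, edgeR adjusted p = 1.03e-05) in Neg and −1.34 (SE 0.14, edgeR adjusted p = 6.2e-07) in 3xKD cells, and the values of its 12 libraries are given with the line comparison. *Scmh1*, an SCM protein, was called lower in 3xKD cells at −0.59 (SE 0.066, edgeR adjusted p = 1.29e-06), just past the fold limit, and had −0.51 (SE 0.068) in Neg cells, just inside it. On the adjusted p alone, *Bmi1* (−0.43), *Pcgf2* (−0.38), *Phc2* (−0.39) and *Cbx7* (−0.15) were lower in Neg EpiLCs. The *Scmh1* call was lost in 12 of 23 other fits, among them DESeq2 (−0.56) and the fits without 3xKD ESC replicate 1 (−0.56) or replicate 3 (−0.58), Neg EpiLC replicate 1 (−0.58) or replicate 2 (−0.58), and 3xKD EpiLC replicate 3 (−0.57). In 3xKD cells *Cbx7* (0.14) and *Cbx6* (−0.16) were past the adjusted p alone, and *Cbx2*, *Phc3* and *Scml2* did not pass it in either line.

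Variant PRC1 had 3 of its 12 genes called higher in Neg EpiLCs and none called lower by edgeR or by DESeq2, none being lower at an unadjusted p under 0.05 either. Of all genes tested, edgeR called 9.78% higher and 11.0% lower. On the adjusted p alone 8 variant PRC1 genes were higher, where 17.5% of all genes were, those under 1 CPM included. The median log2 fold change of the 12 was 0.25. With an offset for transcript length, described below, *Pcgf6*, *Kdm2b*, *E2f6* and *Mga* alone of these genes were still past the adjusted p. *Kdm2b*, the CxxC protein that brings variant PRC1 to CpG islands, read 137, 133 and 128 CPM in Neg ESCs, 103, 106 and 102 in 3xKD ESCs, 278, 261 and 275 in Neg EpiLCs and 208, 204 and 209 in 3xKD EpiLCs. It rose by 1.03 (SE 0.035, edgeR adjusted p = 2.94e-13) in Neg cells and 1.000 (SE 0.036, edgeR adjusted p = 7.52e-13) in 3xKD cells on the log2 scale. *E2f6*, a DNA-binding subunit of the PCGF6 complex, read 27.8, 34.1 and 32.5 CPM in Neg ESCs, 28.4, 28.95 and 31.8 in 3xKD ESCs, 53.2, 50.5 and 54.7 in Neg EpiLCs and 33.998, 32.03 and 32.5 in 3xKD EpiLCs. The Neg EpiLC libraries alone stood above the rest, with a log2 fold change of 0.74 (SE 0.068, edgeR adjusted p = 9.53e-08) in Neg cells and 0.14 (SE 0.070, edgeR adjusted p = 0.111) in 3xKD cells. *Pcgf6* rose in Neg cells from 42.7, 48.6 and 48.1 to 70.01, 70.8 and 71.9 CPM, by 0.61 (SE 0.047, edgeR adjusted p = 1.32e-08), and had 0.56 (SE 0.047) in 3xKD cells, which missed the fold limit. The *Pcgf6* call in Neg cells was lost without Neg ESC replicate 1 (0.55) or with library size alone (0.57). In 3xKD cells *Pcgf6* was called by DESeq2 (0.59) and without 3xKD EpiLC replicate 3 (0.58). It was called there too with RLE scaling (0.59), upper-quartile scaling (0.64), library size alone (0.60) or no filter (0.59). *Mga*, *Bcor*, *Bcorl1*, *L3mbtl2* and *Rybp* were higher in Neg EpiLCs on the adjusted p alone, at 0.44, 0.48, 0.29, 0.21 and 0.13. In 3xKD cells *Mga* (0.41) and *L3mbtl2* (0.40) were higher by that test. There *Bcor* (−0.29), *Rybp* (−0.12) and *Pcgf5* (−0.53) were lower, and *Pcgf5* was called lower without 3xKD ESC replicate 2 (−0.58) or 3xKD EpiLC replicate 2 (−0.64). *Pcgf1*, *Pcgf3* and *Yaf2* did not pass in either line.

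In the BAP1 complex, *Asxl1*, which activates BAP1, read 252, 259 and 267 CPM in Neg ESCs, 243, 227 and 238 in 3xKD ESCs, 471, 438 and 456 in Neg EpiLCs and 359, 360.0 and 342 in 3xKD EpiLCs. It rose in both lines, by 0.81 (SE 0.038, edgeR adjusted p = 1.73e-11) in Neg cells and, at the fold limit, by 0.58 (SE 0.038, edgeR adjusted p = 1.61e-09) in 3xKD cells. *Bap1* itself stayed inside the fold limit in both lines, at −0.12 (SE 0.034) and 0.17 (SE 0.035), with edgeR adjusted p of 0.00977 and 0.000553, and *Asxl2* had 0.074 (SE 0.049) and −0.0063 (SE 0.051). The *Asxl1* call in 3xKD cells was lost without 3xKD ESC replicate 2 (0.56), 3xKD EpiLC replicate 1 (0.57) or 3xKD EpiLC replicate 2 (0.57).

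**Figure D2:**
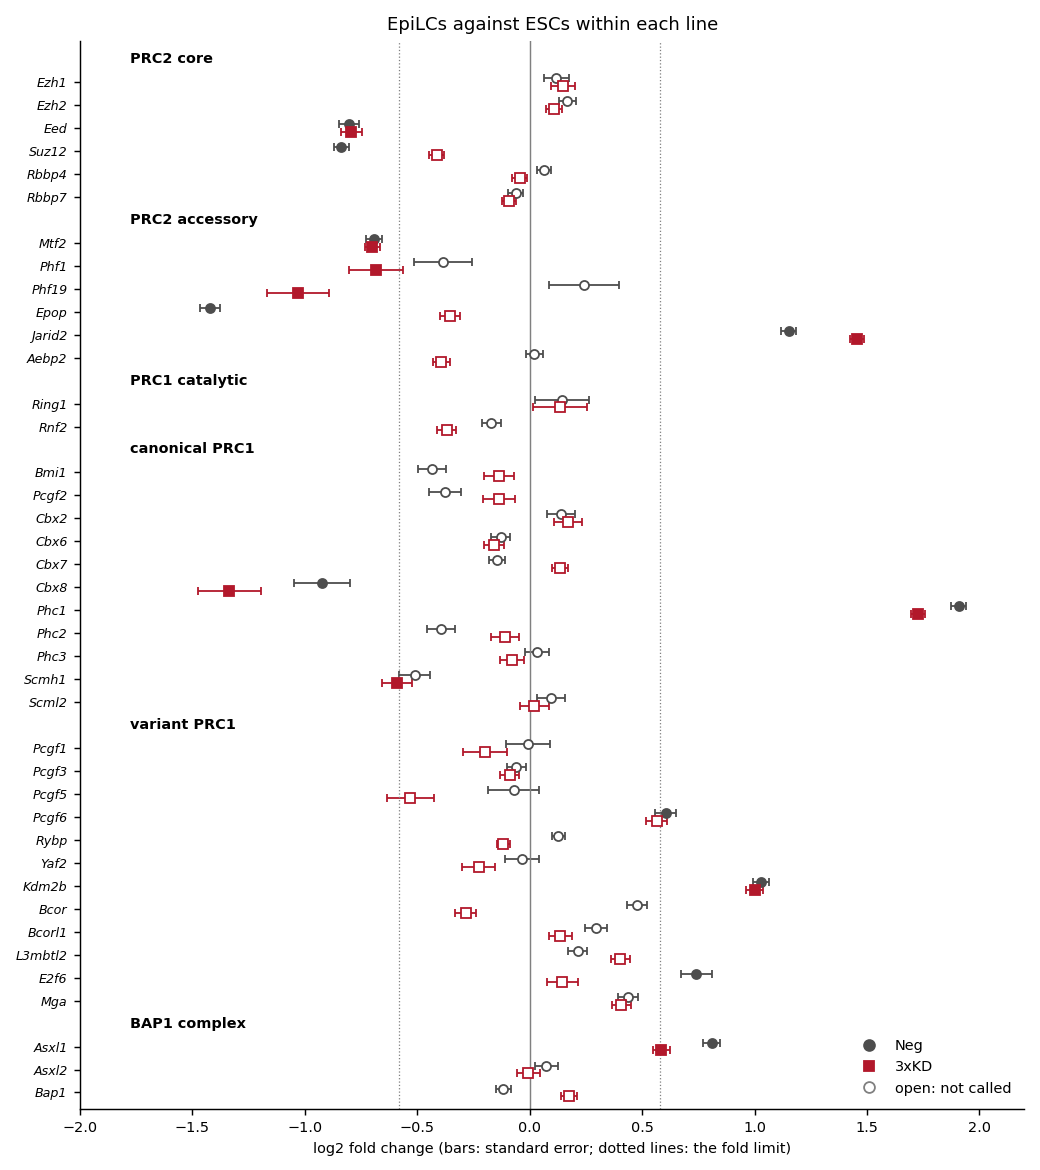
Log2 fold change of EpiLCs over ESCs (horizontal axis, with standard error) for the 40 members by complex, in Neg (circles) and 3xKD cells (squares), filled where called and open where not. *Phc1*, *Jarid2* and *Kdm2b* lie to the right of the upper fold limit of 0.58 in both lines, whereas *Epop* (−1.42 and −0.35) and *Suz12* (−0.84 and −0.41) lie beyond the lower limit in Neg cells alone.

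Each gene's mean transcript length in a library was then taken as an offset, the nearest of these fits to the study's own, which summed transcripts with tximport. That fit left 7 members higher and 6 lower in Neg cells, and 5 and 8 in 3xKD cells on the adjusted p alone, where the shares of all genes were 12.2%, 10.9%, 9.84% and 10.5%. In it the calls between states were lost for *Cbx8* in Neg cells (−0.87, adjusted p = 0.0609), for *Asxl1* in Neg (0.54, adjusted p = 0.00751) and 3xKD cells (0.50, adjusted p = 0.0128), and for *Phf19* (−1.80, adjusted p = 0.035), *Cbx8* (−1.32, adjusted p = 0.012) and *Scmh1* (−0.62, adjusted p = 0.0174) in 3xKD cells, all from edgeR, and *Scmh1* was called lower in Neg cells (−0.76, adjusted p = 0.00541). *Suz12*, *Epop*, *Eed*, *Mtf2*, *Jarid2*, *Phc1* and *Kdm2b* stayed past both limits in Neg cells under that fit, at −0.86, −1.38, −0.81, −0.65, 1.37, 1.78 and 1.09. Of the members past the adjusted p alone, *Ezh2* (0.10, adjusted p = 0.264), *Rnf2*, *Bmi1*, *Pcgf2*, *Cbx7*, *Rybp* (0.080, adjusted p = 0.466), *Bcor*, *Bcorl1*, *L3mbtl2* and *Bap1* (−0.037, adjusted p = 0.788) no longer passed in Neg cells by edgeR. In 3xKD cells *Cbx7*, *Pcgf5* (−0.26, adjusted p = 0.209), *Rybp*, *Bcor*, *L3mbtl2* and *Bap1* no longer passed, and *Cbx6* moved to −0.55.

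The effect of the knockdown was then compared between lines within ESCs. Here 3 members were called higher in 3xKD cells, where 8.50% of all genes were, and 4 lower, where 6.78% were. Among genes with a mean of 1 CPM or more, 13.1% were called higher and 10.5% lower. On the adjusted p alone 7 members were higher and 21 lower, against 15.6% and 16.0% of all genes, those under 1 CPM included. No like share at 1 CPM or more was taken to set beside these counts. With transcript length offsets these counts were 5 and 8, against 9.27% and 7.98% of all genes, so the count of 21 was larger by more than 1.5 times in the fit without lengths. The summed naive markers were also lower in 3xKD ESCs, and their part in this was not tested. The median over the 40 members was −0.19 and that over all genes tested 0.025.

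The largest changes in ESCs were in PRC2 accessory genes. *Epop*, from the values above, was lower in every 3xKD ESC library than in any Neg ESC library, with means of 129 and 286 CPM and a log2 fold change of −1.15 (SE 0.043, edgeR adjusted p = 6.95e-12). *Phf19* read 3.10, 2.75 and 2.65 CPM in Neg ESCs and 7.37, 8.78 and 8.49 in 3xKD ESCs, and rose by 1.54 (SE 0.14, edgeR adjusted p = 2.02e-07) on the log2 scale. Its EpiLC libraries read 3.02, 3.36 and 3.60 in Neg and 4.40, 3.45 and 4.18 in 3xKD cells, so that in CPM the 3xKD ESC libraries stood apart from the other 9. In TPM, which are per transcript length, they did not. There 3xKD ESCs (2.05 to 4.08 TPM) overlapped Neg ESCs (0.44 to 2.40) and Neg EpiLCs (0.82 to 2.55). *Phf1*, at 5.41, 5.37 and 5.66 CPM in Neg ESCs and 10.2, 8.72 and 9.14 in 3xKD ESCs, rose by 0.77 (SE 0.12, edgeR adjusted p = 6.01e-05). Both genes were read at low counts, between 35 and 144 per library for *Phf19* and between 58 and 166 for *Phf1*. *Jarid2* (−0.50), *Aebp2* (−0.16) and, in the core, *Suz12* (−0.48, SE 0.033, edgeR adjusted p = 5.7e-09) and *Eed* (−0.26, SE 0.043, edgeR adjusted p = 0.000104) were lower in 3xKD ESCs on the adjusted p alone. *Ezh1* (0.39) and *Rbbp7* (0.24) were higher by that test, and *Ezh2* (0.094, SE 0.036, edgeR adjusted p = 0.0478) and *Rbbp4* (0.11, SE 0.031, edgeR adjusted p = 0.0104) did not pass it, nor did *Mtf2* (−0.056).

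In canonical PRC1, *Bmi1* (PCGF4), *Scml2* and *Cbx8* fell in 3xKD ESCs. *Bmi1* read 42.6, 41.7 and 47.5 CPM in Neg ESCs, 25.6, 25.5 and 27.4 in 3xKD ESCs, 31.8, 33.1 and 32.9 in Neg EpiLCs and 24.8, 24.6 and 22.04 in 3xKD EpiLCs, with a log2 fold change of −0.75 (SE 0.064, edgeR adjusted p = 6.47e-08) in ESCs. *Scml2*, an SCM protein of PRC1, read 50.1, 55.2 and 49.8 CPM in Neg ESCs, 27.4, 29.3 and 28.8 in 3xKD ESCs, 49.8, 57.1 and 58.6 in Neg EpiLCs and 29.7, 28.4 and 28.6 in 3xKD EpiLCs. All 6 3xKD libraries lay below all 6 Neg libraries, and its log2 fold change was −0.86 (SE 0.064, edgeR adjusted p = 1.47e-08) in ESCs. *Cbx8* read 10.6, 10.7 and 11.5 CPM in Neg ESCs, 6.57, 7.74 and 6.33 in 3xKD ESCs, 6.03, 5.03 and 6.19 in Neg EpiLCs and 2.98, 2.88 and 2.31 in 3xKD EpiLCs. No 2 of the 4 groups overlapped, although 3xKD ESCs and Neg EpiLCs lay next to each other, and the log2 fold change in ESCs was −0.67 (SE 0.12, edgeR adjusted p = 0.000302). *Phc1* (0.38) and *Scmh1* (0.30) were higher on the adjusted p alone, and *Cbx7*, the main CBX reader (−0.42), *Cbx2* (−0.29), *Cbx6* (−0.33) and *Pcgf2* (−0.35) lower. *Phc2*, *Phc3*, *Rnf2* (−0.010, SE 0.042, edgeR adjusted p = 0.885) and *Ring1* (−0.21, SE 0.12, edgeR adjusted p = 0.195) did not pass.

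*Pcgf5* was the single variant PRC1 gene called in ESCs. It read 14.6, 17.1 and 14.9 CPM in Neg ESCs, 31.8, 27.7 and 30.2 in 3xKD ESCs, 13.5, 17.2 and 13.8 in Neg EpiLCs and 20.1, 23.8 and 18.2 in 3xKD EpiLCs, and rose by 0.94 (SE 0.11, edgeR adjusted p = 1.99e-06), with every 3xKD library of either state above every Neg library of that state. On the adjusted p alone, *L3mbtl2* (−0.53), *Rybp* (−0.38), *Mga* (−0.38), *Kdm2b* (−0.36), *Bcor* (−0.27) and *Bcorl1* (−0.25) were lower, and *Pcgf1*, *Pcgf3*, *Pcgf6*, *Yaf2* and *E2f6* did not pass. All 3 BAP1 complex genes were lower by that test, where 16.0% of all genes were, those under 1 CPM included. Their values were −0.53 (SE 0.050) for *Asxl2*, −0.42 (SE 0.035, edgeR adjusted p = 4.79e-08) for *Bap1* and −0.14 (SE 0.038) for *Asxl1*. With transcript length offsets the calls in ESCs of *Phf19* (1.25, adjusted p = 0.162), *Bmi1* (−0.65, adjusted p = 0.0138) and *Cbx8* (−0.56, adjusted p = 0.24) were lost from edgeR and *Cbx7* (−0.61, adjusted p = 0.000967) was gained. Of the genes past the adjusted p alone, *Rybp* (−0.063, adjusted p = 0.595), *Bcorl1* (−0.0051, adjusted p = 0.991), *Asxl2* (−0.16, adjusted p = 0.0623), *Asxl1* (−0.21, adjusted p = 0.285), *Eed* (−0.15, adjusted p = 0.155) and *Aebp2* (−0.084, adjusted p = 0.369) no longer passed in edgeR with offsets, all but *Asxl1* moving towards 0 by more than 1.5 times. *Pcgf2*, *Cbx2*, *Cbx6*, *Scmh1*, *Kdm2b* (−0.37, adjusted p = 0.0127) and *Bcor* (−0.21, adjusted p = 0.317) did not pass either, and *Bap1* (−0.38, adjusted p = 0.00475) was the single BAP1 complex gene still past that test.

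**Figure D3:**
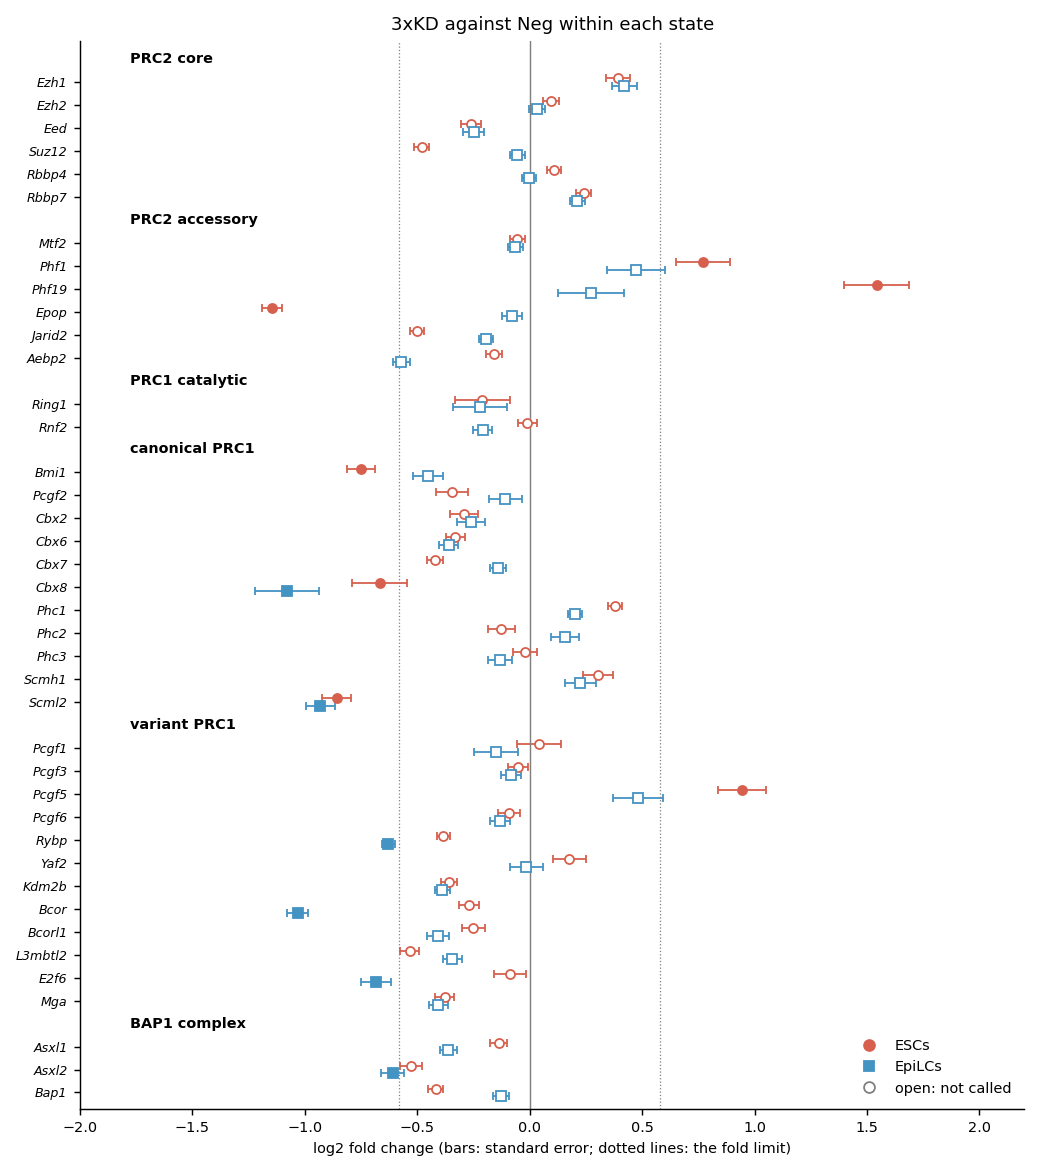
Log2 fold change of 3xKD over Neg (horizontal axis, with standard error) for the 40 members by complex, in ESCs (circles) and EpiLCs (squares), filled where called. *Epop* (−1.15) and *Phf19* (1.54) are the farthest points in ESCs, *Cbx8* (−1.08) and *Bcor* (−1.03) the lowest in EpiLCs, and *Scml2* lies near −0.9 in both.

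In EpiLCs, no member was called higher in 3xKD cells by edgeR or by DESeq2, where 7.88% of all genes were, although 7 members were higher at an unadjusted p under 0.05. A total of 6 were called lower, where 5.35% of all genes were. Among genes with a mean of 1 CPM or more, 12.3% were called higher and 8.57% lower. On the adjusted p alone 5 members were higher and 20 lower, against 14.3% and 15.6% of all genes, those under 1 CPM included. With transcript length offsets they were 3 and 11, against 7.44% and 8.21%, and 1 member, *Pcgf5*, was called higher. The median over members was −0.15 and that over all genes tested 0.032. The summed formative markers were lower in 3xKD EpiLCs and those of 2-cell-like cells higher, and their part in this was not tested.

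Of the 6 calls 3 were in variant PRC1, for *Bcor*, *E2f6* and *Rybp*, and of all genes 5.35% were called lower. *Bcor*, the scaffold of the PCGF1 complex, read 139.8, 144 and 129 CPM in Neg ESCs, 109, 118 and 115 in 3xKD ESCs, 192, 188 and 194 in Neg EpiLCs and 95.2, 96.4 and 88.9 in 3xKD EpiLCs. Neg EpiLCs had the highest values and 3xKD EpiLCs the lowest of the 4 groups, and the log2 fold change in EpiLCs was −1.03 (SE 0.046, edgeR adjusted p = 4.46e-11). *E2f6*, with the values above, stood higher in every Neg EpiLC library than in any other, a log2 fold change of −0.68 (SE 0.067, edgeR adjusted p = 3.81e-07) in EpiLCs. *Rybp*, which stimulates the RING1B ligase, read 259, 266 and 264 CPM in Neg ESCs, 203, 202 and 199 in 3xKD ESCs, 288, 285 and 289 in Neg EpiLCs and 187, 186 and 184 in 3xKD EpiLCs, with the same order of groups as *Bcor*, and fell with a log2 fold change of −0.63 (SE 0.028, edgeR adjusted p = 4.69e-11). *Mga* (−0.41), *Bcorl1* (−0.41), *Kdm2b* (−0.39) and *L3mbtl2* (−0.34) were lower on the adjusted p alone, and *Pcgf5* (0.48) higher. *Pcgf1*, *Pcgf3*, *Pcgf6* and *Yaf2* did not pass. *Pcgf5* passed the fold limit as well without Neg EpiLC replicate 2 (0.61).

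Outside variant PRC1, *Scml2* and *Cbx8* fell in EpiLCs too, with log2 fold changes of −0.93 (SE 0.064, edgeR adjusted p = 5.96e-09) and −1.08 (SE 0.14, edgeR adjusted p = 1.11e-05). *Asxl2*, the second ASXL partner of BAP1, read 130.2, 119 and 124 CPM in Neg EpiLCs and 84.9, 85.98 and 73.8 in 3xKD EpiLCs and fell, with −0.61 (SE 0.050, edgeR adjusted p = 4.68e-08) on the log2 scale, close to the fold limit. That call was lost without Neg EpiLC replicate 1 (−0.57) or 3xKD EpiLC replicate 3 (−0.54). *Bmi1* (−0.45), *Cbx6* (−0.36), *Cbx2* (−0.26) and *Cbx7* (−0.14) were lower on the adjusted p alone, and *Phc1* (0.20) higher, while *Pcgf2*, *Phc2*, *Phc3* and *Scmh1* did not pass. *Asxl1* (−0.36, SE 0.038) and *Bap1* (−0.13, SE 0.034, edgeR adjusted p = 0.0071) were lower on the adjusted p alone. No PRC2 gene was called in EpiLCs by DESeq2, or by edgeR over all 4 groups without length offsets. That edgeR fit called 7.88% of all genes higher and 5.35% lower. At an unadjusted p under 0.05, however, the core had 2 genes higher and 1 lower and the accessory genes 1 higher and 2 lower. *Aebp2* came nearest, at 141, 129 and 136 CPM in Neg EpiLCs and 93.7, 89.8 and 89.5 in 3xKD EpiLCs and −0.57 (SE 0.038, edgeR adjusted p = 4.31e-09), and was called without Neg EpiLC replicate 2 (−0.60) or 3xKD EpiLC replicate 1 (−0.59). An edgeR fit of these 2 groups alone called it lower too (−0.59). *Phf1*, at 0.47 (SE 0.13), was called higher without Neg EpiLC replicate 3 (0.58). *Ezh1* (0.42) and *Rbbp7* (0.21) were higher on the adjusted p alone and *Jarid2* (−0.20) lower, and *Rbbp4*, *Mtf2*, *Phf19* and *Epop* did not pass. Of the core genes *Eed* had −0.25 (SE 0.046) with an edgeR adjusted p of 0.000292, *Suz12* −0.056 (SE 0.033) with 0.221 and *Ezh2* 0.034 (SE 0.036) with 0.519. *Rnf2* was lower by the adjusted p, at −0.21 (SE 0.043) with 0.000778, and *Ring1* had −0.22 (SE 0.12) with 0.171. With library size alone the calls of *Rybp* (−0.57) and *Asxl2* (−0.55) were lost, and with transcript length offsets those of *Cbx8* (−1.01, adjusted p = 0.0535), *Rybp* (−0.33, adjusted p = 0.00656) and *Asxl2* (−0.42, adjusted p = 0.000195) were lost from edgeR and those of *Aebp2* (−0.65, adjusted p = 1.52e-05), *Cbx6* (−0.62, adjusted p = 0.00421) and *Pcgf5* (0.62, adjusted p = 0.00906) gained. Of the genes past the adjusted p alone, *Bcorl1* had −0.057, adjusted p = 0.796 in edgeR with offsets, and *Eed*, *Rbbp7*, *Rnf2*, *Bmi1*, *Cbx2*, *Cbx7*, *Asxl1* (−0.25, adjusted p = 0.205) and *Bap1* (−0.14, adjusted p = 0.251) no longer passed, nor did *Phf1*.

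**Figure D4:**
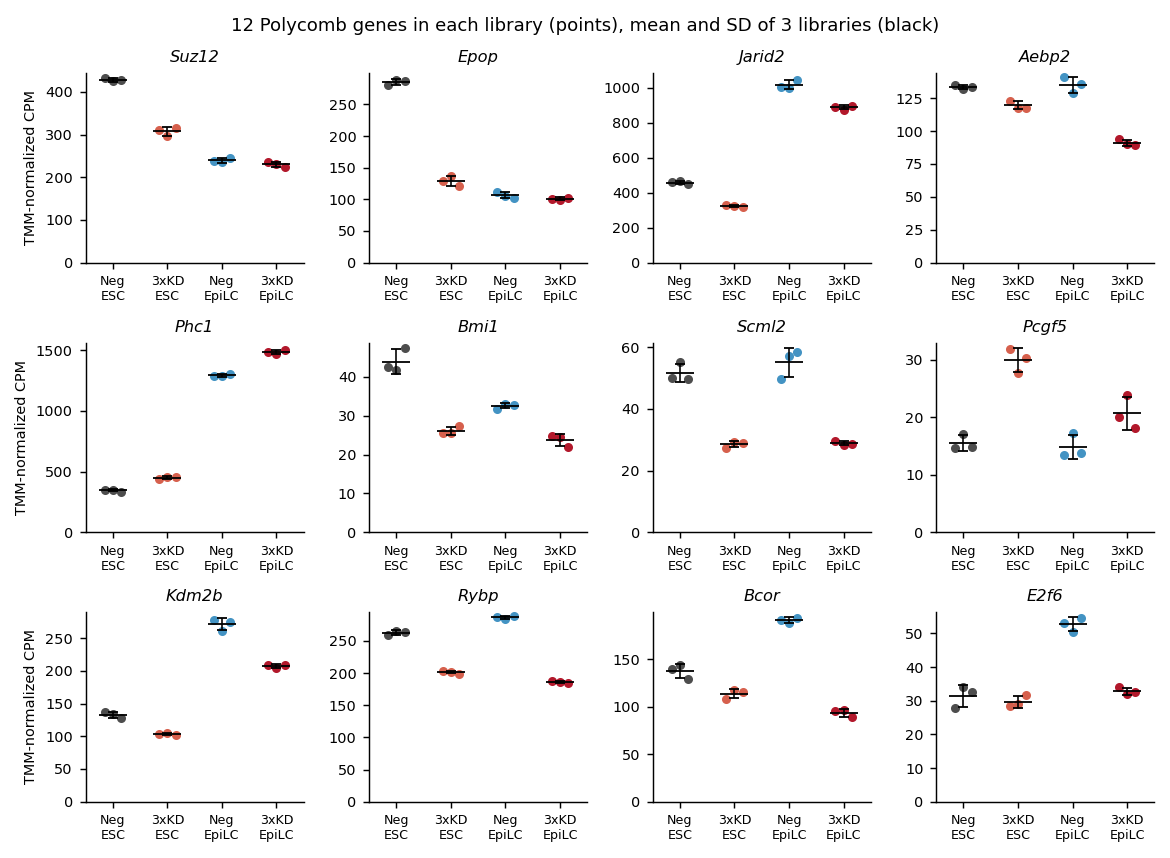
TMM-normalized CPM (vertical axes, from 0) of 12 members in each of the 12 libraries, as points, with mean and SD of 3 libraries in black. *Epop* has means of 286 CPM in Neg ESCs, 129 in 3xKD ESCs, 106 in Neg EpiLCs and 101 in 3xKD EpiLCs, and *Bcor* has its highest mean in Neg EpiLCs (191) and its lowest in 3xKD EpiLCs (93.5).

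The difference of the 3xKD effect between EpiLCs and ESCs was tested as an interaction, at an adjusted p under 0.01 with no fold limit. It was above 0 for 5 members, against 4.76% of all genes, and below 0 for 7, against 5.26%. Among genes with a mean of 1 CPM or more the shares were 7.95% and 8.86%. With library size alone the members split 7 above and 4 below, and over all genes the share above 0 went from 47.5% of calls to 64.9%. The effect on *Epop* was larger in ESCs, with an interaction of 1.07 (SE 0.062, edgeR adjusted p = 6.22e-09), and that on *Suz12* also, with 0.42 (SE 0.047, edgeR adjusted p = 8.59e-06). In both genes the values of 3xKD ESCs lay between those of Neg ESCs and the EpiLC groups. *Phf19* had −1.27 (SE 0.21, edgeR adjusted p = 0.000364), being called in ESCs and not in EpiLCs. *Bcor*, *E2f6* and *Aebp2* lay further below 0 in EpiLCs, with −0.76 (SE 0.064, edgeR adjusted p = 4.8e-07), −0.60 (SE 0.097, edgeR adjusted p = 0.00036) and −0.41 (SE 0.054, edgeR adjusted p = 4.2e-05). *Bap1* (0.29, SE 0.049, edgeR adjusted p = 0.000453), *Jarid2* (0.30, SE 0.044, 0.00012) and *Cbx7* (0.28, SE 0.051, 0.000952) lay further below 0 in ESCs, and *Rybp* (−0.24, SE 0.039, edgeR adjusted p = 0.000335) in EpiLCs. *Scml2* (−0.073, SE 0.090, edgeR adjusted p = 0.681), *Eed* (0.012, SE 0.063, edgeR adjusted p = 0.949) and *Rnf2* (−0.20, SE 0.060, edgeR adjusted p = 0.0315) did not pass, and neither did *Ezh2* (−0.061, SE 0.051, 0.505) or *Ring1* (−0.0088, SE 0.17, 0.997).

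The interactions of *Phc1* and *Asxl1* were the weakest of the 12. *Phc1*, at −0.18 (SE 0.044) with an edgeR adjusted p of 0.00955, did not pass without any one of 8 libraries, namely the 3 of Neg ESCs (−0.19, −0.19 and −0.16), 3xKD ESC replicates 2 (−0.17) and 3 (−0.17), Neg EpiLC replicate 3 (−0.17) and 3xKD EpiLC replicates 1 (−0.18) and 2 (−0.17). *Asxl1*, at −0.23 (SE 0.054) with 0.00747, did not pass without Neg ESC replicate 1 (−0.20) or 2 (−0.22), 3xKD ESC replicate 3 (−0.22), Neg EpiLC replicate 3 (−0.22), or 3xKD EpiLC replicates 1 (−0.23) or 2 (−0.24). *L3mbtl2*, at 0.19, passed without Neg ESC replicate 1 (0.23). Transcript length offsets left 3 of the 12 interactions past the test, *Suz12* (0.53, adjusted p = 0.00427), *Epop* (1.04, adjusted p = 9.06e-06) and *Aebp2* (−0.56, adjusted p = 0.00243), from edgeR. Under that fit the standard errors were larger, for *Bcor* 0.20 in place of 0.064 and for *Phf19* 0.86 in place of 0.21.

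Transcript estimates are given for 2 members, picked after their values were seen. *Kdm2b* is known to be made as a long form with a JmjC demethylase domain and a short form without it. On the minus strand of GRCm39, its transcripts start upstream, the farthest of those shown here at chr5:123127401, or 88.98 kb further on at an internal start, chr5:123038418, the base after the *Kdm2b* window printed above. The coding transcript of the internal start read 19.04, 24.7 and 18.1 TPM in Neg ESCs, 11.98, 16.4 and 14.8 in 3xKD ESCs, 22.6, 27.2 and 25.8 in Neg EpiLCs and 20.4, 15.6 and 15.96 in 3xKD EpiLCs. The 6 coding transcripts with upstream starts summed to 2.30, 2.79 and 1.46 TPM in Neg ESCs, 2.35, 2.22 and 1.96 in 3xKD ESCs, 21.7, 20.2 and 23.5 in Neg EpiLCs and 17.2, 13.8 and 12.9 in 3xKD EpiLCs. The upstream sum was far lower in every ESC library than in any EpiLC library, while the ranges of the internal transcript overlapped between Neg ESCs and Neg EpiLCs. The share of the internal transcript in all *Kdm2b* TPM went from 58.8% ± 4.04 in Neg ESCs to 29.03% ± 2.37 in Neg EpiLCs, and from 57.9% ± 4.95 to 29.4% ± 4.15 in 3xKD cells (SD, n = 3).

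*Rybp* has 3 annotated transcripts in the tables, 1 of them coding. The coding transcript read 31.1, 43.2 and 32.5 TPM in Neg ESCs, 21.3, 25.4 and 25.2 in 3xKD ESCs, 43.1, 48.8 and 49.5 in Neg EpiLCs and 29.8, 25.6 and 21.7 in 3xKD EpiLCs, and its 3xKD libraries were below its Neg libraries in both states. The main retained intron transcript read 30.7, 37.8 and 25.3 TPM in Neg ESCs, 26.6, 39.99 and 31.5 in 3xKD ESCs, 32.98, 35.2 and 33.8 in Neg EpiLCs and 37.3, 26.7 and 31.3 in 3xKD EpiLCs, with overlapping ranges in all groups. The coding share of *Rybp* TPM was 52.4% ± 3.26 in Neg and 40.4% ± 3.76 in 3xKD ESCs, and 56.5% ± 1.01 and 43.5% ± 5.43 in EpiLCs. The average effective length of *Rybp* RNA accordingly differed, at 2428 bases in Neg ESCs, 1962 in 3xKD ESCs, 2585 in Neg EpiLCs and 2086 in 3xKD EpiLCs, and it is this length that the offsets correct. Estimates of single transcripts from single-end reads are uncertain and were not tested.

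**Figure D5:**
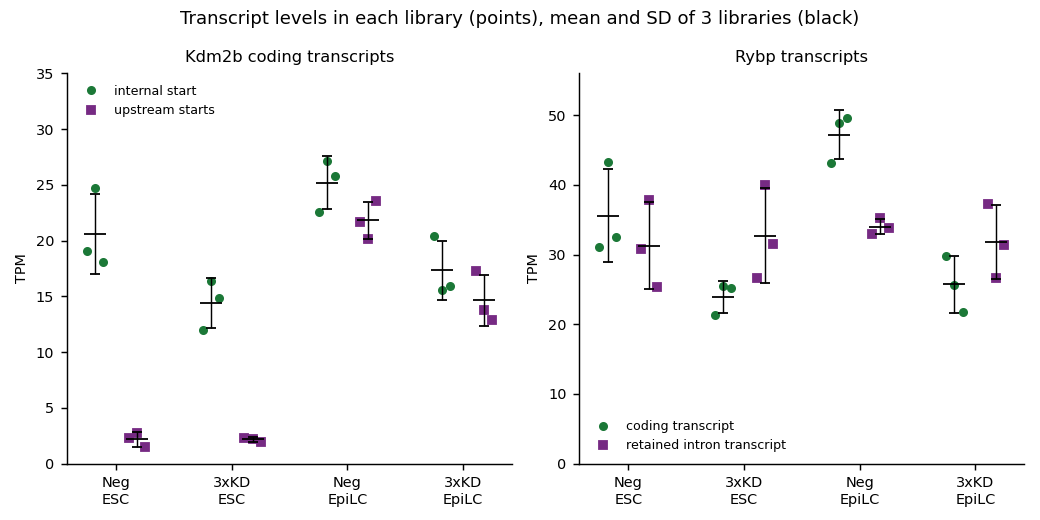
TPM (vertical axes, from 0) of *Kdm2b* coding transcripts by start site and of 2 *Rybp* transcripts in each library, as points, with mean and SD of 3 libraries in black. The upstream *Kdm2b* transcripts sum to at most 2.79 TPM in the ESC libraries, and the *Rybp* retained intron transcript stays between 25.3 and 39.99 TPM in all 12.

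Beyond the members, a list of 33 associated genes (further PRC2, PRC1 and BAP1 partners and enzymes that remove the marks) had 5 genes called higher and 4 lower in Neg EpiLCs against Neg ESCs, where 9.78% and 11.0% of all genes were, and 1 higher and 4 lower in 3xKD cells (9.42% and 9.32%). Between lines, 2 were called higher and 3 lower in ESCs, where 8.50% and 6.78% of all genes were. In EpiLCs none was called higher by edgeR or DESeq2, 6 being higher at an unadjusted p under 0.05, and 3 were called lower, against 7.88% and 5.35%. DESeq2 called 2 and not 3 lower in ESCs and 3 and not 4 lower between states in 3xKD cells, where length offsets gave 3 higher and 2 lower. All 33 had a mean of 1 CPM or more, so the shares given above for such genes are the nearer ones. A few of these genes are given by the size of their change. *Kdm6b*, a demethylase of the PRC2 mark, read 136, 144 and 132 CPM in Neg ESCs, 227, 224 and 218 in 3xKD ESCs, 284, 265 and 261 in Neg EpiLCs and 188, 183 and 186 in 3xKD EpiLCs. It was called higher in 3xKD ESCs, at 0.70 (SE 0.040, edgeR adjusted p = 6.59e-10), and lay at −0.54 (SE 0.039) in EpiLCs, inside the fold limit, with an interaction of −1.24 (SE 0.056, edgeR adjusted p = 4.57e-10). *Lcorl*, which encodes the PRC2 partner PALI2, rose in 3xKD ESCs by 0.91 (SE 0.058). *Mysm1*, a deubiquitinase of H2A, fell in both states, with −0.85 (SE 0.046) in ESCs and −0.65 (SE 0.044) in EpiLCs, and so did the scarce *Asxl3*, with −0.83 (SE 0.18) and −0.73 (SE 0.15). *Max*, the partner of MGA, fell in ESCs, with −0.65 (SE 0.055), and *Ezhip*, an inhibitor of EZH2, in EpiLCs, with −0.60 (SE 0.050). Between states, *Asxl3* (1.46 and 1.57) rose and *Fbrsl1* (−1.40 and −0.997) fell in Neg and 3xKD cells, and *Hcfc1* (0.73) rose in Neg cells. Length offsets ended the calls of *Mysm1* in EpiLCs (−0.28, adjusted p = 0.265) and of *Max* (−0.67, adjusted p = 0.0157) in edgeR.

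A list of 30 classical Polycomb target genes, lineage regulators that are held silent in ESCs, was mostly near the detection limit, with 29 tested and 14 at a mean of 1 CPM or more. In 3xKD ESCs 5 were called higher and 1 lower, where 8.50% and 6.78% of all genes were. In 3xKD EpiLCs 3 were called lower and none higher by edgeR or DESeq2, 7 being higher at an unadjusted p under 0.05, against 5.35% and 7.88% of all genes. DESeq2 called 3 higher in ESCs and 2 lower in EpiLCs, and edgeR with length offsets called 1 higher in ESCs and 2 lower in EpiLCs. *Irx3* read 1.77, 1.31 and 1.58 CPM in Neg ESCs, 2.46, 2.62 and 3.13 in 3xKD ESCs, 8.50, 7.85 and 7.65 in Neg EpiLCs and 2.98, 3.45 and 2.87 in 3xKD EpiLCs, and was called higher in 3xKD ESCs (0.82) and lower in 3xKD EpiLCs (−1.37). *Gata6*, an endoderm regulator, read 5.32, 5.50 and 5.25 CPM in Neg ESCs, 8.60, 9.39 and 9.53 in 3xKD ESCs, 8.99, 8.72 and 10.9 in Neg EpiLCs and 4.47, 4.03 and 5.56 in 3xKD EpiLCs, likewise called higher in 3xKD ESCs (0.78) and lower in 3xKD EpiLCs (−1.02). Both interactions passed, at −2.19 (SE 0.23, edgeR adjusted p = 5.11e-06) and −1.80 (SE 0.18, edgeR adjusted p = 3.75e-06). *Msx1* was called higher in ESCs (0.84) and *Cdx2*, a trophoblast regulator, lower (−2.50), at 2.75, 2.61 and 3.21 CPM in Neg and 0.491, 0.427 and 0.588 in 3xKD ESCs. With length offsets *Gata6* (0.60, adjusted p = 0.0581) and *Msx1* (0.85, adjusted p = 0.0109) were no longer called in ESCs by edgeR. Between states 5 targets were called higher and 4 lower in Neg cells, against 9.78% and 11.0% of all genes, and 3 higher and 8 lower in 3xKD cells, against 9.42% and 9.32%, with *Msx2* (−2.93 and −3.04) falling and *Pax6* (2.11 and 2.65) rising in both. Length offsets left 3 higher and 3 lower in Neg cells, where *Pax6* was lost (1.42, adjusted p = 0.0458), and 3 and 6 in 3xKD cells, and DESeq2 called 4 and 3, and 3 and 6.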

How the data were processed

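mRNA was sequenced from 12 libraries in 4 groups of 3, grouped by sample title, since the cell-type field gives 1 state per line. Per the submitters' processing notes and the paper's methods, the authors used Trim Galore 0.6.7, STAR 2.7.9a and Salmon 1.10.1 with GRCm39, then tximport and DESeq2 at the gene level. The deposited tables give the authors' estimated counts per transcript, not normalized, and TPM, which Salmon scales to transcript length and to the library. The molecule field of the labels gives polyA RNA, but the methods give directional, single-end libraries after removal of ribosomal RNA.

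The estimated counts of a gene's transcripts were added and rounded, and length offsets as tximport can pass on were left to an alternative. Then 25446 of 57180 genes with a total of 10 or more were kept, normalized by TMM and fitted over all 4 groups with edgeR 4.0.16 (quasi-likelihood, Benjamini-Hochberg adjustment) in R 4.3.3. The code was tested on simulated data. Standard errors were obtained as the fold change over the root of its F statistic. CPM carry the TMM factors. Levels, shares and transcripts were described in TPM without a test. Gene positions and promoters were read from the GENCODE annotation and GRCm39.

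The members and lists were chosen with earlier results of these data known. All 40 members were accounted for, with full statistics for called members and for *Ezh2*, *Eed*, *Suz12*, *Rnf2*, *Ring1* and *Bap1*. Of the other lists up to 3 called genes per direction were named, and some items are not reported here. *Cbx6* overlaps *Npcd* on the same strand, and members with antisense partners are uncertain where counting ignored strand. Alternatives were DESeq2 1.42.0, other scalings and filters, offsets for transcript length, a block for the replicate number, 2-group fits, other limits and the omission of each library.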

Additional observations from a re-analysis of the deposited data

Results flagged for a closer look

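A total of 12 members were picked out because the 3xKD effect differed between ESCs and EpiLCs by the interaction test of edgeR, at an adjusted p under 0.01. Of all genes, 4.76% passed that test above 0 and 5.26% below 0. With transcript length offsets *Suz12*, *Epop* and *Aebp2* alone still passed it. *Phc1* and *Asxl1* also failed it when some single libraries were left out. In log2 fold change of 3xKD over Neg, *Epop* had −1.15 in ESCs and −0.077 in EpiLCs (difference 1.07, SE 0.062), and *Suz12* −0.48 in ESCs and −0.056 in EpiLCs (difference 0.42, SE 0.047). *Jarid2* had −0.50 in ESCs and −0.20 in EpiLCs (difference 0.30, SE 0.044), *Cbx7* −0.42 in ESCs and −0.14 in EpiLCs (difference 0.28, SE 0.051), and *Bap1* −0.42 in ESCs and −0.13 in EpiLCs (difference 0.29, SE 0.049). These 5 lay further below 0 in ESCs. *Phf19* had 1.54 in ESCs and 0.27 in EpiLCs (difference −1.27, SE 0.21), and *Phc1* 0.38 in ESCs and 0.20 in EpiLCs (difference −0.18, SE 0.044), both further above 0 in ESCs. *Bcor* had −0.27 in ESCs and −1.03 in EpiLCs (difference −0.76, SE 0.064), *E2f6* −0.089 in ESCs and −0.68 in EpiLCs (difference −0.60, SE 0.097), and *Aebp2* −0.16 in ESCs and −0.57 in EpiLCs (difference −0.41, SE 0.054). *Rybp* had −0.38 in ESCs and −0.63 in EpiLCs (difference −0.24, SE 0.039), and *Asxl1* −0.14 in ESCs and −0.36 in EpiLCs (difference −0.23, SE 0.054). These 5 lay further below 0 in EpiLCs. The summed naive and formative markers, given in the report, also differed between the lines in each state, and their part in these differences was not tested.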

How the results depend on the processing

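The number of members called was 11, 10, 7, 6 and 12 for Neg EpiLCs against Neg ESCs, 3xKD EpiLCs against 3xKD ESCs, 3xKD against Neg in ESCs, the same in EpiLCs, and the difference of effects. Transcript length offsets, the fit nearest to the study's own route, moved the second to 6 and the last to 3. They bring in the spread of the length estimates, and whether that or the lengths themselves changed the calls was not tested. With no fold limit the first 4 counts were 24, 23, 28 and 25. All other alternatives, DESeq2 among them, stayed within 1.5 times of these counts, and no named member reversed a called direction. Leaving out 1 library at a time gave 10 to 11, 9 to 10, 7 to 7, 5 to 8 and 10 to 12. With the replicate number as a block they were 11, 10, 7, 6 and 10. Same-numbered libraries correlated between −0.13 and 0.0999 in their deviations from the group means, 0 of 18 pairs above 0.1. Differently numbered libraries ranged as widely, from −0.15 to 0.18. With 3 libraries per group these values cannot show whether libraries of the same number were paired. The block changed only the interactions of *Phc1* and *Asxl1*. *Phf19*, *Cbx8*, *Phf1*, *Ring1* and *Pcgf1* had at most 225 counts in a library, which limits their precision.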

Other observations

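Some further transcripts of members differed in their share of the gene's TPM by at least 10 points between groups that did not overlap, with a mean of at least 5 TPM in one of them. A transcript of *Mtf2* annotated for nonsense-mediated decay went from 0.483% ± 0.836 in Neg ESCs to 12.2% ± 0.0759 in 3xKD ESCs (SD, n = 3), while the gene's own count differed little there (−0.056 on the log2 scale). The main coding transcript of *Pcgf6* went from 91.02% ± 8.93 to 64.5% ± 11.1 in the same comparison. In EpiLCs that of *Ezh1* went from 85.5% ± 3.29 in Neg to 74.6% ± 2.56 in 3xKD cells. Between Neg ESCs and Neg EpiLCs a coding transcript of *Asxl1* went from 24.5% ± 10.7 to 47.01% ± 3.42. These are descriptions of estimates, chosen from 339 transcripts of members after the values were seen. The share of other genes' transcripts that meet the same limits was not taken.

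The genes of chromosome 16 lay above 0 in 3xKD against Neg in both states, with a median of 0.30 on the log2 scale in each, and no member lies on that chromosome.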
